A study of Mus musculus with 6 samples.

Results

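The genes described are 10 transcripts through which endothelial cells, the lining of blood vessels, hold and attract white blood cells: the adhesion molecules Vcam1, Icam1, Icam2, Sele and Selp, and the chemokines Ccl2, Ccl7, Cxcl1, Cxcl16 and Cx3cl1. They were taken by symbol from a table of 24421 genes, all 10 had a row, and all 10 passed the filter on low counts that left 12753 genes for testing. The RNA came from mouse endothelial cells derived from brain, grown in culture and collected by fluorescence-activated sorting, with 3 libraries that carry the Fli-1 knockout label and 3 that carry the wild-type (WT) label. Fli1 encodes an ETS family transcription factor. Per the labels, its alleles were deleted by induction with 4-OHT (4-hydroxytamoxifen, which switches on tamoxifen-dependent recombinases), and this protocol text is attached to every sample, the wild-type ones included. All cells spent 6 days after induction in co-culture with a vascular niche. The labels give neither the recombinase and its promoter nor the number of animals or clones behind a group, and are silent on whether replicate libraries stem from independent cultures, so p-values measure the spread between these libraries, which may be technical.

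White blood cells leave the blood in steps. Selectins on the endothelium slow the rolling cell, chemokines bound to the vessel wall activate its integrins, and the immunoglobulin-type molecules ICAM-1, ICAM-2 and VCAM-1 then bind those integrins and arrest it. In resting endothelium ICAM-2 is constitutive, whereas VCAM-1, E-selectin and several chemokines are induced through NF-κB, the transcription factor downstream of tumour necrosis factor and interleukin-1 receptors.

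Total counts ranged from 17550185 to 21385951 per library. Fli1 itself went against the labels: it was at 76.8, 111 and 77.4 CPM (a count divided by its TMM-adjusted library total, in the usual per-million unit) under the knockout label and at 45.3, 59.6 and 45.8 CPM under the wild-type label. A count per gene includes exons outside the deleted part, which the labels do not name, so it does not check the deletion, and every direction below is that of the library labelled knockout relative to the library labelled wild-type. The endothelial genes Cdh5 and Pecam1 were at 4432 to 5152 and 2958 to 4078 CPM, while 7 of 19 blood cell markers, among them Spi1, Tyrobp and Rac2, had 0 reads in all 6 libraries. Libraries with the same replicate number deviated together from their group means (correlations of 0.776, 0.857 and 0.652). Results are therefore given for the comparison of the groups without a block (edgeR quasi-likelihood test) and for a paired fit that adds the number as a block.

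In the paired fit 5 of the 10 members were higher and 1 was lower. Vcam1, Icam1, Sele, Cxcl16 and Cx3cl1 rose by 0.23 to 0.65 on the log2 scale, Cxcl1 fell by 0.29, and Icam2, Selp, Ccl2 and Ccl7 did not pass. These are 5 of 10 members higher and 1 of 10 lower, beside 4.81% and 4.01% of all tested genes, or 6 of 10 in either direction beside 8.81%. The median log2 difference of the members was 0.25 and that of all tested genes was -0.0033. Between the groups without the block, edgeR called 0 of 10 members, beside 0.00784% of all tested genes. DESeq2 and limma-voom also called 0 there, and 2 members, Vcam1 and Cxcl16, had an unadjusted p under 0.05 in each of the 3 tools, 2 of 10 beside 4.79% of tested genes in edgeR. The same 2 were the members whose groups did not overlap, 2 of 10 beside 10.2% of tested genes, and both were higher, beside 5.25%. The sign was the same in all 3 pairs for 8 of 10 members, beside 40.7% of tested genes; 6 were higher, beside 20.5%, and 2 lower, beside 20.2%.

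**Figure D1:**
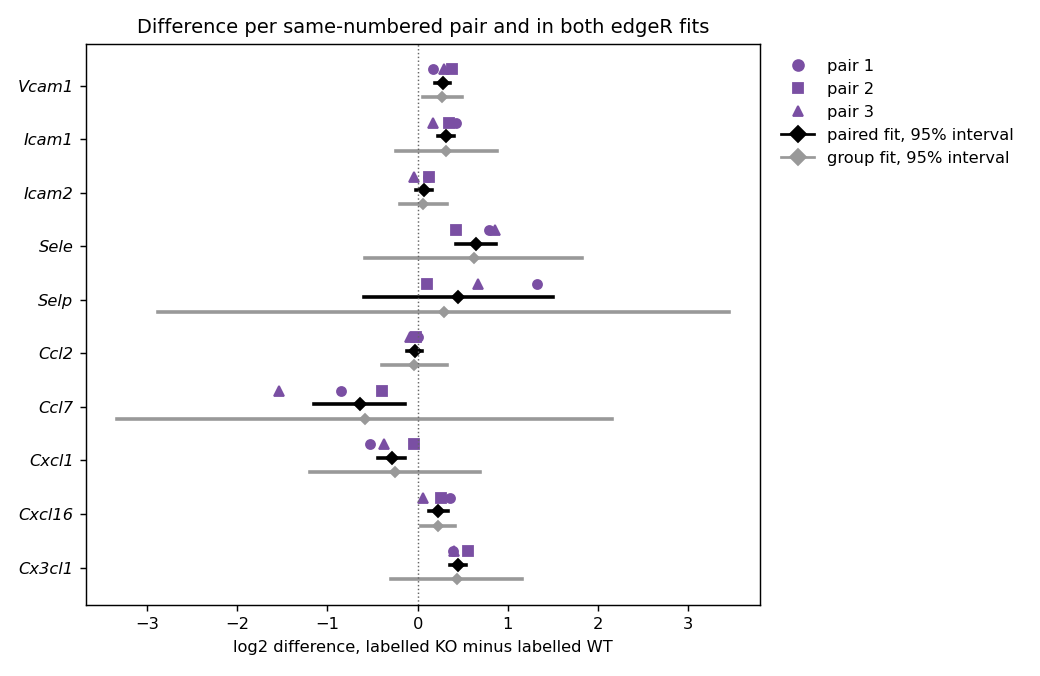
Log2 difference between the library labelled knockout and the library labelled wild-type, per same-numbered pair (purple), and as estimated in the paired fit (black) and in the comparison of the groups (grey), each with its 95% interval. The paired intervals of Vcam1, Icam1, Sele, Cxcl16 and Cx3cl1 lie above 0, and the grey intervals other than those of Vcam1 and Cxcl16 cross 0.

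Sequence upstream of the start was at hand for 5 of the 10 members, from RefSeq promoter entries on GRCm38.p6. The 250 bases before the start are shown for Icam1 and Sele, which rose, and for Cxcl1, which fell, because these 3 windows share a match to GGANNTTCC, a letter string that resembles NF-κB sites and was chosen with the sequences in view. Capitals mark that match and, in Sele, the TATA box TATAAA. All 3 genes lie on the plus strand.
Icam1, chr9:21015690-21015939: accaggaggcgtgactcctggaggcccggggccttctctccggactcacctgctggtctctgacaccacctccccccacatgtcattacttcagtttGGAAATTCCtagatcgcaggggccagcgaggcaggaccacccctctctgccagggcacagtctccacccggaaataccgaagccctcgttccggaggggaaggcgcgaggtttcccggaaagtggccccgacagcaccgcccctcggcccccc
Sele, chr1:164047984-164048233: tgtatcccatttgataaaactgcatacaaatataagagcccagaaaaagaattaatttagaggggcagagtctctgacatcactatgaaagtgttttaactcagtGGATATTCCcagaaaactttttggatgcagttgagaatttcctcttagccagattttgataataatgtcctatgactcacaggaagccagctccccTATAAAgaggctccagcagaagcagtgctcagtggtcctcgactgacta
Cxcl1, chr5:90890995-90891244: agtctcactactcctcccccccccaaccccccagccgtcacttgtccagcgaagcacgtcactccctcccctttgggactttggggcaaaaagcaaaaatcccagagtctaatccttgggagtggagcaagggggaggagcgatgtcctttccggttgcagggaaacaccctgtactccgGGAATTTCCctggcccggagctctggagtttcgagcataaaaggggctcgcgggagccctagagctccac

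The GGANNTTCC match ended 145 bases before the start in Icam1, 137 in Sele and 62 in Cxcl1. Searched on both strands, these letters occurred in 3.59% of 32851 promoter windows of the same length. Because they were chosen with the member sequences in view, this share cannot test whether members carry them more often. These letters were not found in the windows of Selp and Cx3cl1. Windows end at RefSeq starts, which can differ from the gene coordinates given below. The Cx3cl1 window (chr8:94771930-94772179) runs past the gene start at 94772009, so part of it lies inside that gene. The Icam1 window ends at 21015939, short of the gene start at 21015985. The letters CNGGAAGT, which resemble sites of ETS factors such as FLI1, occurred in 7.58% of all windows and in none of the 5 member windows. A match is a description of the letters and shows no binding, and the window is short. Of the 3 genes whose windows share the letters, Icam1 and Sele rose and Cxcl1 fell in the paired fit. The Cxcl1 call was lost with DESeq2 (adjusted p = 0.104) and without pair 1 (adjusted p = 0.0799). A difference between these genes was not tested.

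Levels between genes were compared per length, as counts scaled to library size and to the length of the annotated exons (RPKM). That length was the union of all annotated exons, 8870 bases for Vcam1 and, for Cxcl1, its whole span of 1875 bases. The order below depends on this divisor. In CPM, which is not scaled to length, Vcam1 (543 to 762) lay above Ccl2 (290 to 405) in every library. Ccl2, which recruits monocytes, stood above the other members at 255 to 356 RPKM over the 6 libraries. Icam2 (65.9 to 85.9 RPKM) and Vcam1 (61.1 to 85.9 RPKM) followed, and their libraries overlapped in both groups. Below a gap came Icam1 at 27.3 to 54.6, Cx3cl1 at 19.1 to 44.8, Cxcl16 at 23.0 to 31.7 and Cxcl1 at 12.8 to 30.4 RPKM, where each neighbour in this order overlapped the next in both groups. Selp ranged from 1.11 to 22.05, Ccl7 from 0.506 to 6.22 and Sele from 1.51 to 5.91 RPKM.

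Of the selectins, Sele encodes E-selectin, made by activated endothelium, and Selp encodes P-selectin, stored in Weibel-Palade bodies, the secretory granules of endothelium. Their genes lie 57.6 kb apart on chromosome 1 (GRCm38, Sele at 164048234 to 164057677 and Selp at 164115264 to 164150026, plus strand). Sele was at 7.57, 17.2 and 11.8 CPM in libraries 1, 2 and 3 under the knockout label and at 4.39, 12.9 and 6.53 CPM in libraries 1, 2 and 3 under the wild-type label, from 92 to 322 reads. The groups overlapped, because number 2 was high in both, yet each library labelled knockout lay above its same-numbered partner. The means were 12.2 ± 4.84 and 7.93 ± 4.41 CPM (SD, n = 3 each). In the paired fit the log2 difference was 0.65 ± 0.11 (SE, adjusted p = 4.56e-05), a 1.56-fold rise, and without the block it was 0.62 ± 0.48 (SE, adjusted p = 0.996). By pair it was 0.78, 0.42 and 0.86.

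Selp was at 12.3, 97.4 and 33.2 CPM under the knockout label and at 4.92, 90.9 and 20.9 CPM under the wild-type label. It was higher in 3 of 3 pairs, but by unequal amounts: 1.32, 0.10 and 0.67 on the log2 scale. The paired estimate of 0.45 ± 0.28 (SE) did not pass (adjusted p = 0.549), with a 95% interval of -0.60 to 1.498. Leaving out pair 1 or pair 2 gave estimates of 0.29 and 0.89 that did pass (adjusted p = 0.00129 and 1.65e-12), and leaving out pair 3 gave 0.33, which did not (adjusted p = 0.835). Each of these fits kept 2 pairs, so the small p-values rest mainly on a spread pooled across genes. They do not show that Selp itself differed, since its pairs were so unequal. A non-coding gene on the opposite strand, Gm16548, shares 438 exonic bases with Selp, and it had at most 6 reads per library.

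Among the immunoglobulin-type molecules, Vcam1 encodes the ligand of the α4 integrins (chromosome 3, 116109949 to 116129688, minus strand). It was at 762, 704 and 736 CPM under the knockout label and at 680, 543 and 600 CPM under the wild-type label. The groups did not overlap, and the libraries labelled knockout were the closer together, with means of 734 ± 29.1 and 607 ± 68.8 CPM (SD, n = 3 each). The paired log2 difference was 0.28 ± 0.042 (SE, adjusted p = 5.51e-06), a 1.21-fold rise, and the pairs gave 0.16, 0.37 and 0.29. Without the block it was 0.27 ± 0.092 (SE, adjusted p = 0.976, unadjusted p = 0.0214 in edgeR).

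Icam1, whose product binds the β2 integrins LFA-1 and Mac-1, lies on chromosome 9 (21015985 to 21028817, plus strand). Its levels were 159, 238 and 165 CPM under the knockout label and 119, 187 and 146 CPM under the wild-type label. Number 2 was again the high one in both groups, so the groups overlapped while all 3 pairs went the same way, by 0.42, 0.35 and 0.17. The paired log2 difference was 0.32 ± 0.045 (SE, adjusted p = 1.88e-06), and the unpaired one was 0.31 ± 0.23 (SE, adjusted p = 0.996). An antisense gene, Gm47079, shares 511 exonic bases with Icam1 and has no row of its own.

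Icam2, the constitutive ligand of LFA-1 (chromosome 11, 106377656 to 106388075, minus strand), was at 164, 137 and 157 CPM under the knockout label and at 152, 125 and 162 CPM under the wild-type label. Pair 3 went the other way from pairs 1 and 2. The paired log2 difference was 0.065 ± 0.044 (SE, adjusted p = 0.435), and its 95% interval of -0.024 to 0.15 bounds the difference without showing that the groups were alike.

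Ccl2 and Ccl7 encode monocyte chemoattractants that signal through CCR2, and they are neighbours on chromosome 11 (Ccl2 at 82035571 to 82037453 and Ccl7 at 82045712 to 82047525, plus strand). Ccl2 was at 292, 367 and 381 CPM under the knockout label and at 290, 372 and 405 CPM under the wild-type label. Same-numbered libraries lay close together, at differences of 0.0087, -0.019 and -0.089 on the log2 scale. The paired estimate was -0.033 ± 0.041 (SE, adjusted p = 0.708), with a 95% interval of -0.12 to 0.049. Ccl7 was scarce, with 10, 71 and 7 reads under the knockout label and 18, 105 and 23 under the wild-type label. All 3 pairs were lower, by -0.85, -0.39 and -1.53, but the paired estimate of -0.64 ± 0.25 (SE) did not pass (adjusted p = 0.111).

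Cxcl1, a chemoattractant for neutrophils that signals through CXCR2 (chromosome 5, 90891241 to 90893115, plus strand), was the member that fell. It was at 24.1, 55.3 and 29.0 CPM under the knockout label and at 34.8, 57.0 and 37.5 CPM under the wild-type label. Number 2 was high in both groups and showed the smallest difference, with pair values of -0.53, -0.043 and -0.37. The paired log2 difference was -0.29 ± 0.072 (SE, adjusted p = 0.00949), and the unpaired one was -0.26 ± 0.38 (SE, adjusted p = 0.996). The call was lost without pair 1 (-0.18, adjusted p = 0.0799) and with DESeq2 (-0.31, adjusted p = 0.104).

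Cxcl16 and Cx3cl1 encode the transmembrane chemokines, which act on the cell surface as adhesion molecules and, once cut off, as soluble attractants; their receptors are CXCR6 and CX3CR1. Cx3cl1 (chromosome 8, 94772009 to 94782427, plus strand) was at 170, 110 and 176 CPM under the knockout label and at 130, 75.0 and 133 CPM under the wild-type label. Number 2 was the low one in both groups, and each pair was higher, by 0.39, 0.55 and 0.40. With a paired log2 difference of 0.44 ± 0.045 (SE, adjusted p = 7.68e-10), a 1.36-fold rise, Cx3cl1 ranked 32 of 12753 genes by p, the smallest rank among the members. The unpaired estimate was 0.43 ± 0.29 (SE, adjusted p = 0.996).

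Cxcl16 (chromosome 11, 70453983 to 70459984, minus strand) was at 88.9, 95.8 and 84.9 CPM under the knockout label and at 69.4, 79.8 and 81.3 CPM under the wild-type label. The groups did not overlap, although pair 3 differed little: the pair values were 0.36, 0.26 and 0.064. The paired log2 difference was 0.23 ± 0.051 (SE, adjusted p = 0.00185), and the unpaired one was 0.23 ± 0.080 (SE, adjusted p = 0.976). The paired call was lost without pair 2 (0.21, adjusted p = 0.0614) and with DESeq2 (0.23, adjusted p = 0.0692). Cxcl16 shares 552 exonic bases with Zmynd15 on the opposite strand, which had 348 to 556 reads per library against 1454 to 1869 for Cxcl16, and whether counting used strand is not given in the sources used here.

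**Figure D2:**
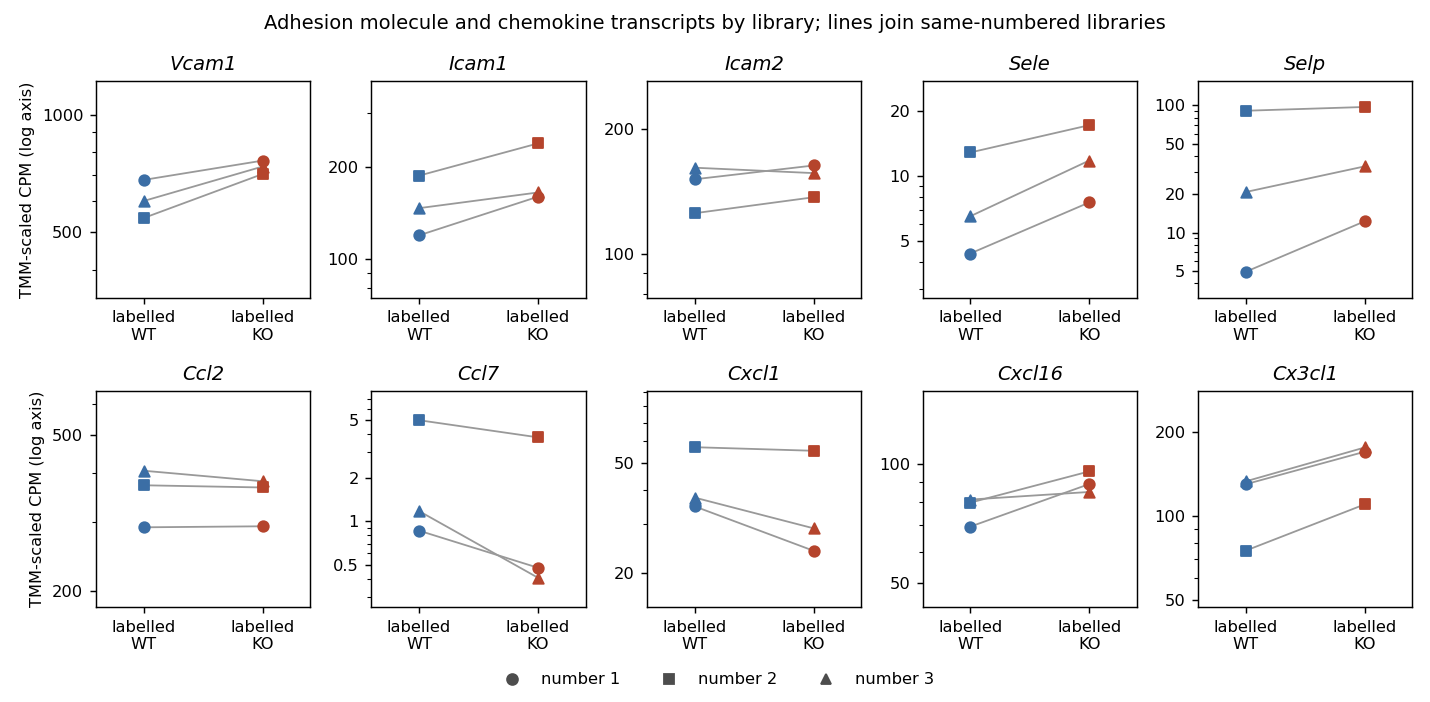
CPM (log axis, scaled to each panel) of the 10 transcripts in each library; colour marks the label, marker shape the replicate number, and lines join same-numbered libraries. The lines of Vcam1, Icam1, Sele, Selp, Cxcl16 and Cx3cl1 rise in all 3 pairs, those of Ccl7 and Cxcl1 fall in all 3, and number 2 (squares) stands apart from the others for Selp and Ccl7.

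For the members other than Vcam1 and Cxcl16, the span between replicate numbers within each group exceeded the fold between the groups. In Selp the highest library labelled wild-type was 18.5 times the lowest, and among those labelled knockout it was 7.93 times. Ccl7 spanned 5.81-fold and 9.36-fold, Sele 2.93-fold and 2.28-fold, and Cxcl1 1.64-fold and 2.30-fold under the wild-type and the knockout label. Vcam1 spanned 1.25-fold and 1.08-fold, and Cxcl16 1.17-fold and 1.13-fold. The direction differed by gene: number 2 was highest in both groups for Icam1, Sele, Selp, Ccl7 and Cxcl1, lowest in both for Vcam1, Icam2 and Cx3cl1, and neither for Ccl2 and Cxcl16.

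**Figure D3:**
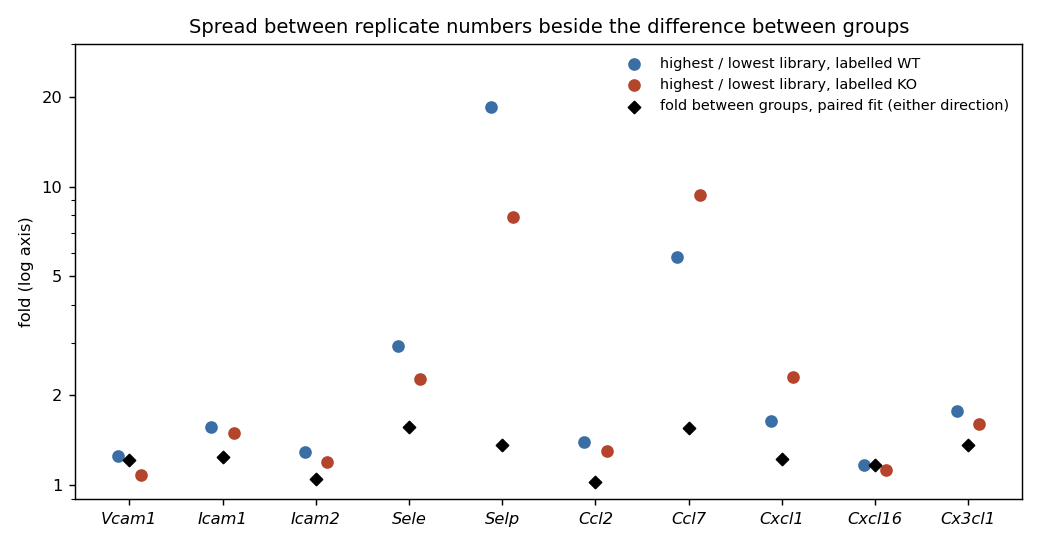
Fold between the highest and the lowest of the 3 libraries labelled wild-type (blue) and knockout (red), beside the fold between the groups in the paired fit in either direction (black), on a log axis. Selp spans 18.5-fold and 7.93-fold within the groups beside 1.37-fold between them, whereas for Cxcl16 all 3 folds lie between 1.13 and 1.17.

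The sums of fibroblast and blood cell markers also moved with the number. The summed level of 10 fibroblast markers was 131, 1003 and 432 CPM in libraries 1, 2 and 3 under the knockout label and 187, 1414 and 467 CPM under the wild-type label, so it was highest in number 2 and lower in the library labelled knockout of each pair. Of these markers 8 were tested, 1 rose and 3 fell in the paired fit, and 0 of the 10 were without reads. For 11 mural cell markers the sum was 1446, 1885 and 1895 CPM in libraries 1, 2 and 3 under the knockout label. Under the wild-type label it was 1427, 2255 and 1596 CPM. Number 2 was highest only under the wild-type label, and the sums of pairs 1 and 3 were higher under the knockout label. Of these mural markers 10 were tested, with 0 higher and 3 lower in the paired fit. The 19 blood cell markers summed to 242, 131 and 235 CPM under the knockout label and to 204, 104 and 193 CPM under the wild-type label, so this sum was higher under the knockout label in each pair, as were the members that rose. Of these markers 4 were tested and 15 were not, and 7 had 0 reads. In the paired fit 2 rose and 0 fell. Those 2, named after their values were seen, were Laptm5, at 79.4 to 225 CPM over the 6 libraries (0.33 ± 0.044, SE, adjusted p = 5.36e-07), and Coro1a, at 6.13 to 18.3 CPM (0.32 ± 0.0998, SE, adjusted p = 0.0336). The sums of 104 to 242 CPM thus mostly follow Laptm5 and say little about the other markers. Ptprc, which defines white blood cells, had 16 reads in all 6 libraries. In bulk RNA a change in the share of such cells and a change per cell cannot be told apart, and the part of these cells in the members' differences was not tested. Without pair 2, the paired fit called 5 members higher and 1 lower, with Selp passing and Cxcl16 not. All genes called there numbered 339 higher and 205 lower. Leaving out pair 2 keeps the marker differences within pairs 1 and 3, so it does not test the part of these cells.

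Counts of paired calls in the marker sets above and the lists below stand beside 4.81% of all tested genes higher and 4.01% lower. Of 33 other chemokine genes, 11 passed the filter, 2 rose and 0 fell in the paired fit, and 10 had 0 reads in every library. Cxcl5, a neutrophil chemoattractant 130 kb from Cxcl1, was at 9.47, 96.8 and 26.4 CPM under the knockout label and at 5.82, 67.5 and 18.5 CPM under the wild-type label. It rose by 0.54 ± 0.067 (SE, adjusted p = 8.86e-08), whereas its neighbour Cxcl1 fell, and a difference between the 2 was not tested. Cxcl12, which retains blood stem cells, rose by 0.21 ± 0.042 (SE, adjusted p = 0.000407) from 1565 ± 387 to 1794 ± 336 CPM (SD, n = 3), and no longer passed without pair 2 (0.16, adjusted p = 0.213). Of 23 chemokine receptors 8 were tested; Ackr3, a scavenger of Cxcl12, was at 63.8 ± 10.5 CPM under the knockout label beside 75.0 ± 6.82 (SD, n = 3 each) and fell by 0.24 (adjusted p = 0.00121), a call lost with DESeq2 (adjusted p = 0.0558). Cxcr4, the signalling receptor, did not pass at -0.077 (adjusted p = 0.319). The chemokine receptors named above for the member chemokines were near 0: over all 6 libraries Ccr2 had 0 reads, Cxcr2 had 1, Cx3cr1 had 4 and Cxcr6 had 15.

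Levels of the leukocyte counter-receptors, the other side of the adhesion step, differed widely. Of 14 listed, 5 were tested, and over all libraries the selectin ligand Selplg had 1 read and the integrin chain Itgb2 had 18. Itga4, the α4 chain that binds VCAM-1, was at 81.3, 60.2 and 107 CPM under the knockout label and at 78.2, 57.1 and 82.9 CPM under the wild-type label. Its rise of 0.17 ± 0.054 (SE, adjusted p = 0.0382) was lost without pair 2 (0.21, adjusted p = 0.0519) or pair 3 (0.066, adjusted p = 0.612), with library size scaling (0.15, adjusted p = 0.0926) and with DESeq2 (0.17, adjusted p = 0.399). Itgb1, its partner chain, and Glg1, an E-selectin ligand, were at 2432 ± 37.3 and 199 ± 6.08 CPM under the wild-type label (SD, n = 3) and did not pass at 0.040 and 0.093.

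Calls among other molecules of adhesion and transmigration, 1 of 21 tested genes, stood beside 8.81% of all tested genes. Of 29 listed, 27 had a row under the listed symbol and 21 were tested; 1 rose and 0 fell, and their median log2 difference was 0.019. Bst1, an ectoenzyme that takes part in leukocyte passage, rose by 0.35 ± 0.064 (SE, adjusted p = 0.000101), from 29.2 ± 11.3 to 37.3 ± 14.5 CPM (SD, n = 3). The junction molecules Cdh5 and Pecam1 did not pass, at 0.050 (adjusted p = 0.55) and 0.089 (adjusted p = 0.205).

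The NF-κB pathway list, all 37 of whose genes were tested, held 1 gene that rose and 2 that fell, with a median of 0.014. Nfkbiz, an atypical inhibitor family member that acts in the nucleus, was at 30.4, 42.9 and 30.1 CPM under the knockout label and at 44.0, 59.7 and 41.8 CPM under the wild-type label, and fell by 0.49 ± 0.058 (SE, adjusted p = 2.53e-08). Relb, an NF-κB subunit, rose by 0.18 (adjusted p = 0.0444), and Irak1, a kinase of interleukin-1 receptor signalling, fell by 0.14 (adjusted p = 0.0407). Both calls were lost without any 1 of the 3 pairs, and with DESeq2 (adjusted p = 0.483 for Relb and 0.354 for Irak1); the estimates without a pair were 0.14 to 0.19 for Relb and -0.17 to -0.11 for Irak1. Relb was also lost with library size scaling (0.15, adjusted p = 0.0987). The receptors, kinases, subunits and inhibitors other than these 3, 34 of 37 genes, did not pass. Calls were thus 3 of 37, beside 8.81% of all tested genes, so the count does not set this list apart.

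Among 24 other genes that inflammatory cytokines induce in endothelium, 20 passed the filter; 1 rose and 2 fell, and the median log2 difference was -0.029. Ptgs2, the inducible cyclooxygenase, was at 286 ± 110 CPM under the knockout label beside 462 ± 125 (SD, n = 3 each) and fell by 0.72 ± 0.046 (SE, adjusted p = 3.37e-14), and Nos2, the inducible nitric oxide synthase, by 0.25 ± 0.062 (SE, adjusted p = 0.00623), the latter lost without pair 1 (-0.22, adjusted p = 0.0523) and with DESeq2 (-0.24, adjusted p = 0.211). Genes placed with Vcam1 and Icam1 as cytokine-induced thus differed in direction in these libraries.

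The last lists concerned the handling of the proteins. Of 23 anchors and sheddases 1 rose and 2 fell: Ezr, which ties ICAM-1 and VCAM-1 to actin, rose by 0.28 ± 0.072 (SE, adjusted p = 0.0078), Timp3, an inhibitor of the shedding protease ADAM17, fell by 0.34 ± 0.056 (SE, adjusted p = 0.000474), and Arhgef26, an exchange factor bound by ICAM-1, fell by 0.24 (adjusted p = 0.0356) although 1 of its 3 pairs was higher. Ezr was lost without pair 1 or pair 2 and Arhgef26 without pair 1 or pair 3, and all 3 were lost with DESeq2 (adjusted p = 0.222, 0.1 and 0.466). Of 24 Weibel-Palade body genes, which bear on where P-selectin is kept, 22 were tested; Mia3, needed for export of large cargo, rose by 0.14 (adjusted p = 0.0245) and Stx3, a fusion protein, fell by 0.21 (adjusted p = 0.0199). Mia3 and Stx3 were lost without pair 2 or pair 3 and with DESeq2, and Mia3 also with library size scaling (0.11, adjusted p = 0.0803).

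**Figure D4:**
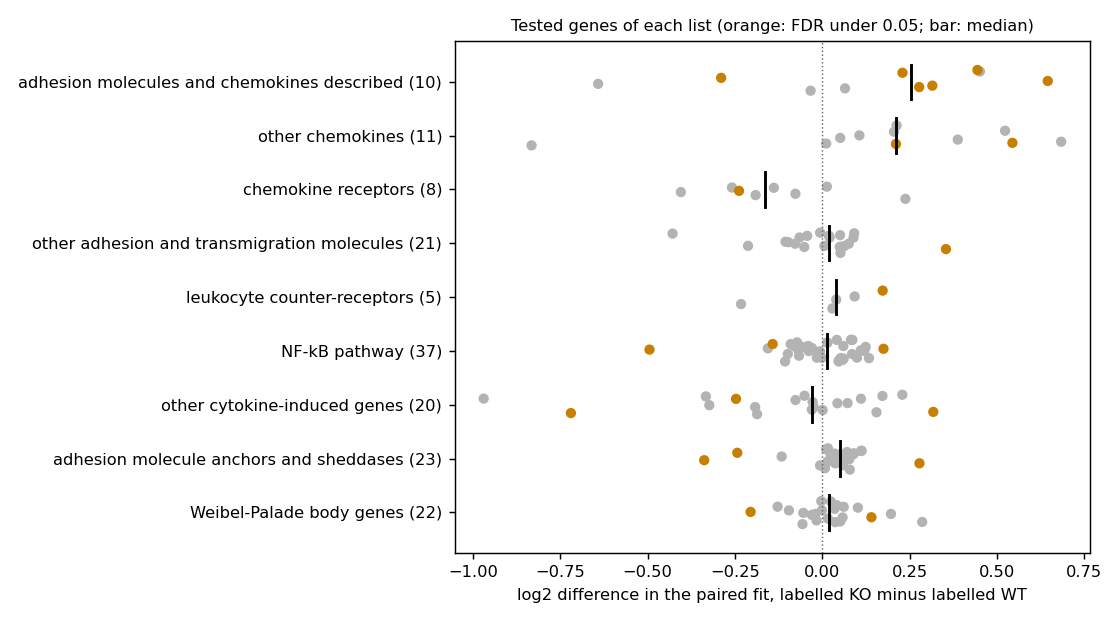
Log2 difference in the paired fit for each tested gene of 9 lists, with the number of tested genes in brackets; orange points passed at an FDR of 0.05, grey points did not, and bars give medians. The median of the 10 adhesion molecules and chemokines described is 0.25, and that of the 37 NF-κB pathway genes is 0.014.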

How the data were processed

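Polyadenylated RNA was sequenced from 6 samples. The authors deposited raw counts per gene symbol. Tools listed, per the submitters' processing notes, were STAR 2.6.1d, Trim Galore 0.6.4, FastQC 0.11.8, featureCounts and Subread 1.6.4, on mm10 or GRCm38; the annotation and strand setting were not given in the sources used here. Per the labels' protocols, 2 library kits were used, one of them stranded, without saying which sample had which.

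The main test was that of edgeR 4.0.16 under R 4.3.3 (filterByExpr, TMM, robust quasi-likelihood F test, Benjamini-Hochberg FDR of 0.05 over all genes tested), and with DESeq2 1.42.0 and limma 3.58.1 as alternatives. CPM uses TMM-scaled library sizes. An exact test of 3 against 3 libraries cannot go below a two-sided p of 0.1 and was not used. The paired fit adds the replicate number. The labels do not state the pairing, which rests on the correlations given above. Library names in both groups carry B1, B2 and B3, which match the replicate numbers. The paired fit leaves 2 residual degrees of freedom in place of 4, so its small p-values rest on a spread pooled across genes. Fewer remain when a pair is left out, so calls made or lost there rest on that pooled spread even more. Every pair of libraries differed by more than counting error (chi-square divided by its degrees of freedom, 5.68 to 42.8). RPKM uses the union of GENCODE M21 exons. Each test was run on data simulated from the paired fit, with known changes added. That simulation takes the pairing and the estimated spread as given, so it does not check either.

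Members and lists were chosen with earlier results of these data known. Genes named from other lists were those called in the unpaired fit, up to 4 per direction with the smallest paired p and, for lists with under 2 calls, the 2 of highest level; reads of untested receptors and markers were chosen after their values were seen. Some genes of these lists are not reported here.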

Additional observations from a re-analysis of the deposited data

How the results depend on the processing

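Between the groups without the block, 12 genes were higher and 7 lower with DESeq2. With limma-voom, a minimum change of 1.5-fold or an FDR of 0.01, 0 genes were lower. Leaving out 1 library gave 0 to 1 lower. Adding the replicate block called 613 genes higher and 511 lower, and 5 members higher and 1 lower; of 10 members it changed the call of 6. No other alternative called a member in the unpaired fit. The unpaired direction turned when 1 library was left out for Icam2 (-0.042 to 0.14), Selp (-0.78 to 1.88), Ccl2 (-0.16 to 0.071), Ccl7 (-2.39 to 0.61), Cxcl5 (-0.78 to 1.86), Cdh5 (-0.0064 to 0.10), Pecam1 (-0.0063 to 0.16), Cxcr4 (-0.16 to 0.075), Itga4 (-0.039 to 0.37) and Timp3 (-0.93 to 0.29).

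In the paired fit, DESeq2 called 262 genes higher and 111 lower, with 4 members higher and 0 lower. An FDR of 0.01 called 388 and 259, and kept the count of members at 5 and 1. A minimum change of 1.5-fold called 22 and 5, with 0 members in either direction. Leaving out a pair gave 339 to 603 genes higher, 205 to 600 lower, 5 to 6 members higher and 0 to 1 lower. Of all paired calls 54.5% were higher, and 39.1% with library size scaling. Vcam1, Icam1, Sele and Cx3cl1 passed under 11 of 12 paired alternatives, all but the 1.5-fold minimum. The cause was not tested.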
